A study of Mus musculus with 8 samples.

Results

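The genes described here are 10 transcription factors that set and maintain mast cell identity: *Gata1*, *Gata2*, *Mitf*, *Tal1*, *Runx1*, *Spi1*, *Cebpa*, *Cebpb*, *Stat5a* and *Stat5b*. They were chosen by name, with earlier results of these data known. All 10 were found among the 24059 gene symbols of the count data. A filter on low counts kept 9 of them among the 14934 genes tested, and *Cebpa* fell below it. RNA was measured by mRNA sequencing in mast cells that had been grown from the bone marrow of C57BL/6 mice by at least 4 weeks of culture with IL-3 (BMMCs). The cells of 4 mice were transfected with Cas9-gRNA ribonucleoproteins (RNPs) carrying either a scrambled, non-targeting guide or guides against *Zc3h12a*, the gene of the RNA-degrading protein Regnase-1. Both groups went through transfection and 1 wk of further culture, and were taken at rest, without IgE and antigen. Each group had 4 samples, numbered as replicates 1 to 4, and a sample was a pool of transfected cells and not a clone, so that unedited cells may remain in it.

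GATA2 and GATA1 are zinc finger factors that bind GATA motifs in the enhancers of mast cell genes, and TAL1 and RUNX1 are found with them at many such enhancers in blood cells. MITF drives protease, *Kit* and granule genes, while PU.1 (encoded by *Spi1*) and the C/EBP factors are shared with other myeloid cells, in which a high C/EBPα level favours granulocyte fates over the mast cell fate. STAT5A and STAT5B are closely related proteins that carry the signals of IL-3 and of the KIT receptor to the nucleus, on which the survival of mast cells depends.

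Total counts ranged from 19610240 to 33986762 after scrambled RNP and from 23712029 to 28564062 after *Zc3h12a* RNP. The 12 mast cell markers examined summed to 52342 to 64910 CPM (a gene's reads per 1e+06 reads of the TMM-normalized library) in the 8 samples, and among them *Tpsab1* had 0 to 3 counts. The 12 macrophage markers summed to 13 to 19.1 CPM and the 10 neutrophil markers, 6 of which were listed, to 0.127 to 0.571 CPM. The 5 basophil markers summed to 448 to 544 CPM and the 6 megakaryocyte markers, 5 of which were listed, to 1355 to 2126 CPM. Most of these sums came from *Cd200r3* (mean 511 CPM after scrambled RNP, 476 after *Zc3h12a* RNP) and from *Itga2b* (1675 and 1595). *Vwf* was at 120 and 126 CPM. Group means of *Mcpt8*, *Prss34*, *Itga2* and *Ms4a3* were at most 5.10 CPM, and those of *Pf4*, *Gp9* and *Gp1bb* at most 1.51 CPM. The part of other cells in the members' values was not tested. The targeted transcript, *Zc3h12a*, was at 34.8 ± 6.65 CPM after scrambled RNP and 33.2 ± 5.91 CPM after *Zc3h12a* RNP (mean ± SD, n = 4 each). The level of this mRNA thus does not separate the groups. By Western blot, the paper reports that RNPs against this gene depleted the encoded protein very effectively. The mRNA counts do not measure that protein, so the extent of editing in these samples cannot be read from them. In these bulk samples, fewer cells that express a gene and less RNA per cell cannot be told apart.

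Short stretches of the members' promoters are shown for pairs that are compared later or that hold a motif of another member. RefSeq promoter windows (250 bases before to 50 after a start site) were given for 9 of the 10 genes, 16 windows in all. Each window was placed by exact match on GRCm39. The windows shown for *Stat5a* (100751060 to 100751359) and *Stat5b* (100713347 to 100713646) lie inside the annotated genes. Those genes span 100750177 to 100776065 and 100671556 to 100741589. Capitals mark the motif, searched on both strands, and the sequence is written along the strand of the gene.

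*Stat5a*, chr11:100751253-100751276, plus strand, E-box CAGCTG starting at base -48: tatcggaggCAGCTGacctttgag
*Stat5b*, chr11:100713421-100713444, minus strand, E-box CAGCTG starting at base -39: tgtctgaagCAGCTGaccttttag
*Tal1*, chr4:114913409-114913432, plus strand, GATA motif AGATAA on the opposite strand starting at base -205: tagagtcttTTATCTttgagcaat
*Mitf*, chr6:97783929-97783952, plus strand, RUNX motif TGTGGT on the opposite strand starting at base -81: ccaggcggaACCACAaatcccagg

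The CAGCTG letters lay in 3 of the 16 windows (*Gata2*, *Stat5a* and *Stat5b*) and in 16.3% of all 32851 windows. AGATAA was found in 1 of the 16 (*Tal1*), against 11.2% of all windows, and TGTGGT in 3 (*Mitf*, *Runx1* and *Stat5a*), against 16.8%. GAGGAA, the core bound by PU.1, was in 4 of the 16 windows (*Gata1*, *Runx1*, *Stat5a* and *Tal1*), against 28.3%. TTGCNNAA, a C/EBP pattern, was in 3 of the 16 (of *Mitf* and *Tal1*), against 10.8%, and in *Tal1* it adjoins the GATA motif. CACGTG, bound by MITF, was in 1 of the 16 windows (*Runx1*) and in 7.15% of all windows. CATGTG (14.2% of all windows) and the STAT pattern TTCNNNGAA (8.3%) were in none of the 16 windows. The E-box, the first MITF motif and the STAT pattern read the same on both strands. These matches describe letters in short windows and not bound sites.

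The levels of the 10 factors spanned more than 3 orders of magnitude, with *Gata2* at the top and *Cebpa* near 0 in each sample. Levels of different genes were compared as CPM per kilobase, using the length of all annotated exons joined. *Gata2* was at 235 CPM per kilobase as the mean of the 8 samples (lowest 168, highest 287), which placed it at rank 116 of 14327 genes with a level. *Gata1* followed at 74.0 (57.3 to 94.1) and *Tal1* at 71.1 (51.9 to 80.1), and these neighbours were ordered that way in 5 of 8 samples. Their ranges over the 8 samples overlapped. An exact two-sided sign-flip permutation test over the 4 replicate-number means gave p = 0.75, and cannot go below 0.125.

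*Runx1* was at 49.0 CPM per kilobase (42.6 to 54.4), *Cebpb* at 45.5 (6.80 to 107.4) and *Spi1* at 33.0 (27.5 to 43.7). *Cebpb*, which overlaps with both neighbours, was below each of them in 4 of 8 samples, so its place in the order was not fixed. *Stat5b* had 17.2 CPM per kilobase (14.4 to 23.0), *Stat5a* 14.0 (9.65 to 18.6) and *Mitf* 11.4 (7.35 to 14.4). *Stat5a* stood above *Mitf* in 7 of 8 samples. The steps from *Gata2* to *Gata1*, *Tal1* to *Runx1*, *Spi1* to *Stat5b*, *Stat5b* to *Stat5a* and *Mitf* to *Cebpa* held in 8 of 8 samples, each with p = 0.125 in the exact sign-flip test, the smallest that 4 replicate numbers allow.

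**Figure D1:**
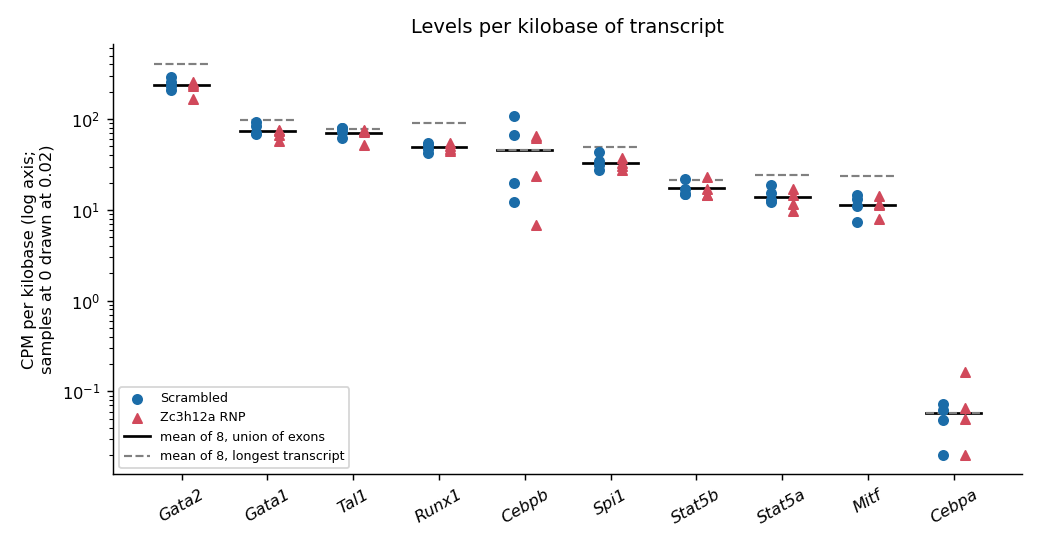
CPM per kilobase of the 10 factors on a log axis, in order of their mean. Circles are scrambled RNP samples, triangles *Zc3h12a* RNP samples, solid lines the mean of 8 samples with all exons joined and dashed lines the mean with the longest annotated transcript, and samples at 0 are drawn at 0.02. *Gata2* lies above the other factors in all 8 samples, *Cebpb* spreads from 6.80 to 107.4, and *Cebpa* lies at or below 0.164.

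The order depends in part on the length used. With the longest annotated transcript in place of joined exons, *Gata2* was at 409 CPM per kilobase and still at the top, but *Runx1* (89.6) came above *Tal1* (77.7), and *Stat5a* (24.3) and *Mitf* (23.3) above *Stat5b* (21.5). The order of *Stat5a* and *Stat5b* is thus not given by these counts. Both lie side by side on chromosome 11 (*Stat5a* at 100750177 to 100776065 on the plus strand, *Stat5b* at 100671556 to 100741589 on the minus strand, GRCm39). They share 612 different stretches of 50 bases, which is 6.96% of those of *Stat5a* and 7.45% of those of *Stat5b*. A single read from these stretches could belong to either gene. The paper sequenced reads of 50 bases in pairs, and the other read of a pair may lie outside the shared stretches.

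*Cebpa* (chromosome 7, 34818718 to 34821353), which encodes C/EBPα, was almost without reads. It had 4, 5, 0 and 4 counts in scrambled RNP samples 1 to 4 and 5, 10, 0 and 4 counts in *Zc3h12a* RNP samples 1 to 4. The 2 samples of replicate 3 held no read, which allows a level of up to 0.115 CPM after scrambled RNP and 0.127 CPM after *Zc3h12a* RNP. These limits are 3 counts over the raw total count, without the TMM scaling of the other CPM values, and cover counting error only. In the 6 samples with *Cebpa* reads, the *Mitf* level per kilobase was 48.1 to 290.0 times that of *Cebpa*, and in replicate 3 it was at least 249 times after scrambled RNP and at least 248 times after *Zc3h12a* RNP.

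The question put to the members was whether their mRNA differed between *Zc3h12a* RNP and scrambled RNP samples. No member was called higher or lower. A member was called where its log2 fold change went beyond 0.5 and its Benjamini-Hochberg adjusted p was at most 0.05 in a quasi-likelihood test by edgeR, blocked on replicate number and adjusted over all genes tested. Across all genes the same rule called 0% higher and 0% lower, while the unadjusted p was at most 0.05 for 922 genes (6.17%), among them 1 member, *Gata1*. Among the 9668 genes with a mean log2 CPM above 2, the range in which the 9 tested members lie, this share was 9.36%. The CPM of all 10 members overlapped between the groups, whereas 0.924% of genes tested did not overlap.

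**Figure D2:**
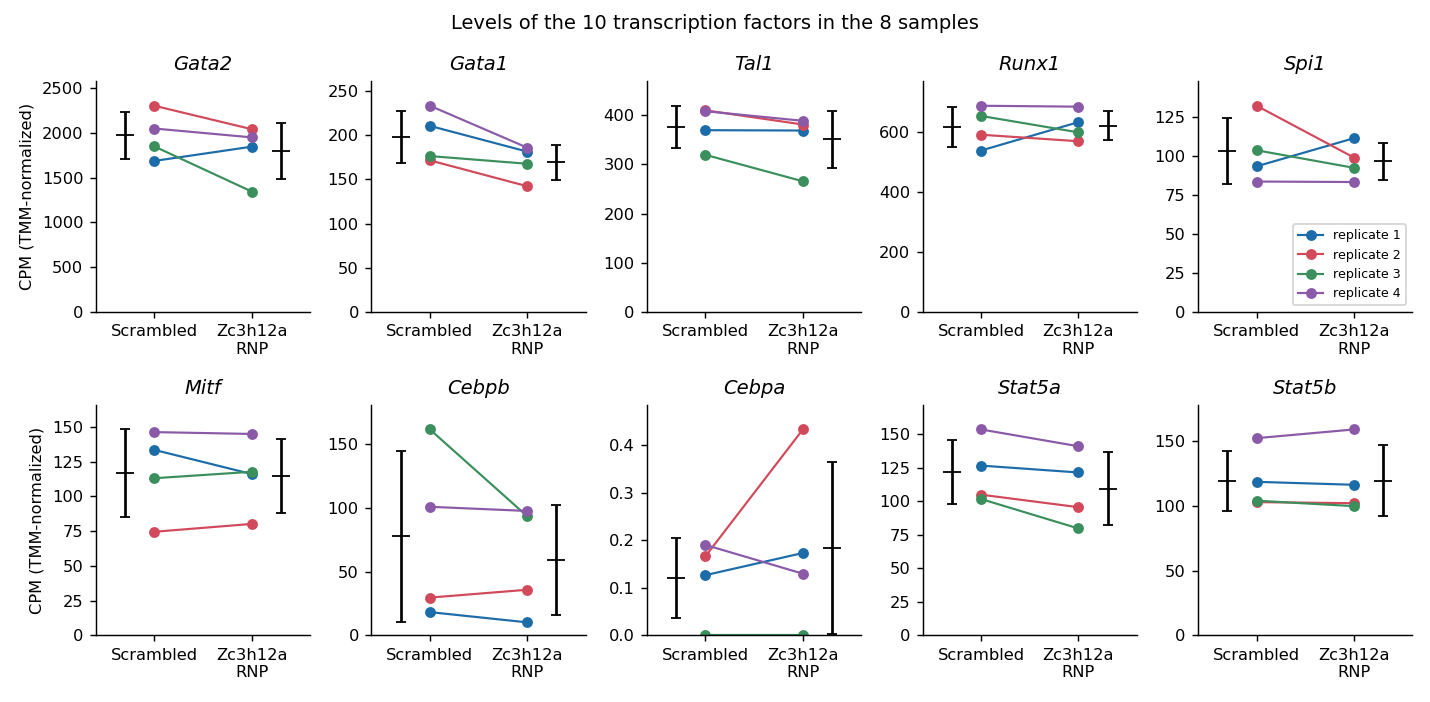
TMM-normalized CPM of the 10 factors, each panel with its own axis from 0. Points joined by a line are the scrambled and *Zc3h12a* RNP samples of 1 replicate number, and black bars are the mean ± SD of 4 samples. The lines of *Gata1*, *Tal1* and *Stat5a* fall in all 4 pairs, and replicates 1 and 2 lie below replicates 3 and 4 for *Cebpb*.

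*Gata1* (X chromosome, 7825499 to 7844310), whose protein is needed for mast cell maturation, was at 211, 172, 176 and 234 CPM in scrambled RNP samples 1 to 4. It was at 182, 142, 168 and 186 CPM in *Zc3h12a* RNP samples 1 to 4. The level was lower in the *Zc3h12a* RNP sample of each pair, and the groups overlapped. The log2 differences within pairs were -0.22, -0.27, -0.073 and -0.33, and the fitted log2 fold change was -0.22 with a standard error of 0.080 and a limma 95% interval of -0.39 to -0.053. The unadjusted p was 0.0257 and the adjusted p 0.700 (edgeR), and the exact two-sided sign-flip test over the 4 pairs gave its smallest possible p, 0.125. The opposite-strand transcript *Gm14820* overlaps 13.3% of its exon bases. Other members have opposite-strand overlaps too, 11.5% for *Gata2* (*Spehd*), 4.88% for *Tal1* (*Gm33786*), and 5.69% (*Gm72578*) and 1.72% (*Stat3*) for *Stat5a*. Those of *Mitf*, *Runx1* and *Cebpa* are at most 1.935%.

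*Gata2* (chromosome 6, 88170559 to 88184018), which is required for mast cell development, had 1688, 2306, 1850.4 and 2051 CPM in scrambled RNP samples and 1847, 2043, 1346 and 1952 CPM in *Zc3h12a* RNP samples, replicates 1 to 4. It was higher after *Zc3h12a* RNP in pair 1 and lower in the other three. The log2 fold change was -0.14 (standard error 0.10, limma 95% interval -0.46 to 0.17, edgeR adjusted p 0.960). *Gata2* to *Gata1* is a ratio that changes during differentiation in the erythroid lineage, and per kilobase it was 3.15 ± 0.744 after scrambled RNP and 3.33 ± 0.817 after *Zc3h12a* RNP (SD, n = 4). It was higher in 3 of 4 pairs, which is within the spread between pairs (exact two-sided sign-flip permutation test, p = 0.75).

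*Tal1* (chromosome 4, 114913623 to 114928952), a basic helix-loop-helix factor of the stem cell leukaemia locus, had 369.8, 410.1, 319 and 408 CPM in scrambled RNP samples and 369, 381, 266 and 389 CPM in *Zc3h12a* RNP samples. All 4 pairs were lower after *Zc3h12a* RNP, pair 1 by only 0.0028 on the log2 scale. *Runx1* (chromosome 16, 92398354 to 92623037), the DNA-binding partner of CBFβ, was the steadiest of the members, with 539, 592, 655 and 689 CPM against 634, 571, 600.2 and 686 CPM. The highest and lowest of its 8 samples differed 1.28-fold, and its log2 fold change of 0.012 had an interval of -0.20 to 0.23. *Runx1* was higher after *Zc3h12a* RNP in pair 1, by 0.23 on the log2 scale, and lower in the other 3 pairs.

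*Spi1* (chromosome 2, 90912562 to 90946101) had 93.2, 132, 103 and 83.4 CPM in scrambled RNP samples and 111, 98.8, 92.2 and 83.1 CPM in *Zc3h12a* RNP samples. Its pairs went in both directions, from 0.26 in pair 1 to -0.42 in pair 2. *Mitf* (chromosome 6, 97783950 to 97998323) had 133, 74.6, 113 and 146 CPM against 116, 80.2, 118 and 145 CPM. For *Mitf*, 2 pairs were higher and 2 lower, replicate 2 was the lowest and replicate 4 the highest in both groups, and the log2 fold change was -0.014 (standard error 0.083). For *Mitf* the limma 95% interval was -0.19 to 0.16, which leaves out a change as large as 0.5 in either direction.

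*Stat5a* had 126, 105, 102 and 153 CPM in scrambled RNP samples and 121, 95.5, 79.7 and 141 CPM in *Zc3h12a* RNP samples, and was lower in all 4 pairs. *Stat5b* had 118, 103, 104 and 152 CPM against 116, 102, 99.7 and 159 CPM, lower in 3 pairs by 0.012 to 0.060 on the log2 scale and higher in pair 4 by 0.062. The log2 fold changes were -0.17 for *Stat5a* (standard error 0.082, edgeR adjusted p 0.875) and -0.0092 for *Stat5b* (0.073, 0.988). The limma 95% interval of *Stat5b*, -0.16 to 0.14, was the narrowest among the members. The counts of the 2 genes were nearly alike in scrambled RNP samples, at 3990 against 3736, 3146 against 3085, 2580 against 2639 and 3224 against 3197. Their ratio per kilobase was 0.854 ± 0.0314 after scrambled RNP and 0.769 ± 0.0859 after *Zc3h12a* RNP (SD, n = 4), lower in 4 of 4 pairs. The log2 ratio differed by -0.032, -0.12, -0.29 and -0.19 in pairs 1 to 4, for which the exact two-sided sign-flip permutation test gave the smallest p it can, 0.125, or 0.25 adjusted over the 2 ratios tested.

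*Cebpb* (chromosome 2, 167530835 to 167532338), an intronless gene whose product is a C/EBP factor induced by inflammatory signals, differed far more between samples than the other tested members. It had 18.3, 29.7, 161 and 101 CPM in scrambled RNP samples and 10.2, 35.8, 93.4 and 97.6 CPM in *Zc3h12a* RNP samples. Replicates 1 and 2 were low and replicates 3 and 4 high after either RNP, and the highest of the 8 samples was 15.8 times the lowest. The pair differences were -0.83, 0.27, -0.79 and -0.047, and the log2 fold change was -0.34 (standard error 0.19, edgeR adjusted p 0.927). Its limma 95% interval of -0.78 to 0.084 includes changes beyond the threshold of 0.5. Leaving out replicate 1 took the log2 fold change to -0.15 and leaving out replicate 2 took it to -0.49. *Peds1*, on the opposite strand, overlaps 312 of its 1504 exon bases (20.7%), and whether the counting used strand is not given in the sources used here.

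**Figure D3:**
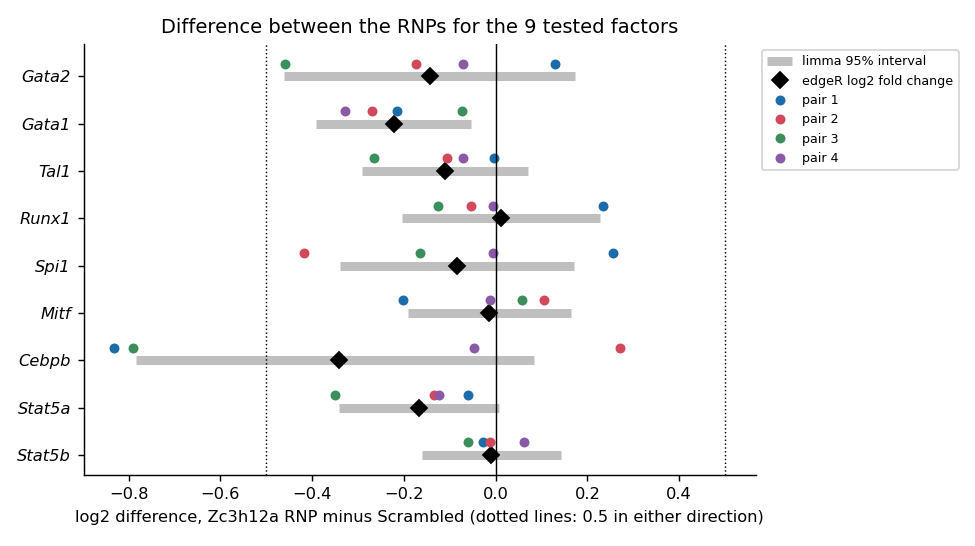
Log2 difference between *Zc3h12a* RNP and scrambled RNP for the 9 tested factors. Diamonds are the edgeR log2 fold change, grey bars the limma 95% interval, coloured points the 4 pairs, and dotted lines the threshold of 0.5 in either direction. The grey bar of *Gata1* alone lies wholly below 0, from -0.39 to -0.053, and that of *Cebpb* alone crosses -0.5.

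Taking the 9 tested members by direction, 8 had a negative log2 fold change and 1, *Runx1*, a positive one, with a median of -0.11. Over all genes tested 42.2% were negative with a median of 0.038, and among the 9668 genes with a mean log2 CPM above 2, 51.2% were negative with a median of -0.0039. Members lower in 4 of 4 pairs were *Gata1*, *Tal1* and *Stat5a*, 3 of 9, against 8.54% of all genes tested and 11.4% of those above the log2 CPM of 2. No member was higher in 4 of 4 pairs, against 4.98% and 6.35%. These shares describe members chosen with earlier results of these data known, and are not a test. The count of negative members depends on the setting, and without replicate 2 it was 5 of 9. Without replicate 1 and with upper-quartile normalization 7 of 9 were negative. The count was 6 of 10 with no low-count filter, and 9 of 9 with RLE size factors, with DESeq2 and with a filter of 10 counts in every sample.

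The members were also compared between replicate numbers, by an F test of the replicate terms in the same edgeR fit, a test that was added after the data were seen. At an adjusted p at or under 0.05 it called 4 of the 9 members, *Cebpb* (0.00192), *Mitf* (0.00708), *Stat5b* (0.0113) and *Stat5a* (0.0125). It called 28% of all genes and 42.5% of those with a mean log2 CPM above 2, so that the share of members called is near that of genes at a like level. Left out in turn, replicates 1, 3 and 4 each left *Cebpb* and *Mitf* called, with 9.62%, 9.97% and 19.3% of all genes, and without replicate 2 *Cebpb* and *Stat5a* were called, with 16.1%. A limma-trend F test called 5 members, *Tal1* being added at an adjusted p of 0.0448, and 28.5% of all genes.

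For *Cebpb* the geometric means of the pairs were 13.7, 32.7, 123 and 99.3 CPM in replicates 1 to 4, an 8.94-fold range. Its SD between replicate numbers was 1.47 on the log2 scale, above that of 99.7% of the 9668 genes with a mean log2 CPM above 2, whose median SD was 0.268. The other tested members had an SD of 0.113 (*Runx1*) to 0.389 (*Mitf*), with *Runx1* above 8.18% and *Mitf* above 76.3% of those genes. *Mitf* ran from 77.4 CPM in replicate 2 to 146 CPM in replicate 4, a 1.88-fold range. *Stat5a* and *Stat5b* were both highest in replicate 4 (147 and 156 CPM) and lowest in replicate 3 (90.03 and 102 CPM). The spread of the 4 pair differences was smallest for *Stat5b*, at an SD of 0.052, above that of 1.70% of the genes.

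**Figure D4:**
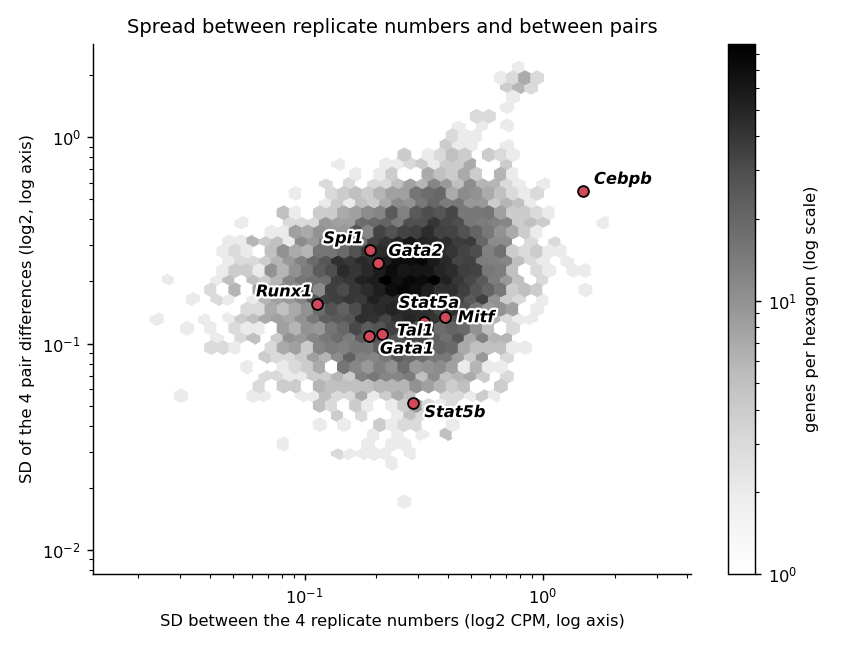
SD of log2 CPM between the 4 replicate numbers (means of each pair) against the SD of the 4 pair differences, both on log axes, for 9668 genes (grey hexagons, darker where more genes lie) and the 9 tested factors (red points). *Cebpb* lies at 1.47 on the horizontal axis, far right of the other factors, and *Stat5b* lies low, at 0.052 on the vertical axis.

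The genes whose centred log2 CPM over the 8 samples lay nearest to a member's were sought among 9667 genes by the root mean square difference. For *Cebpb*, *Dusp5*, which encodes an ERK phosphatase, was among the nearest at 0.371, against a root mean square of 1.31 for *Cebpb* about its own mean. *Dusp5* had 21.1, 79.8, 315 and 224 CPM in scrambled RNP samples and 24.2, 92.6, 245 and 198 CPM in *Zc3h12a* RNP samples, lowest in replicate 1 and highest in replicate 3 after either RNP. *Cebpb* was lowest in replicate 1 as well, and highest in replicate 3 after scrambled RNP and in replicate 4 after *Zc3h12a* RNP. The other members had nearer neighbours, at 0.048 to 0.081, among them *Pcyox1* and *Fam53a* for *Gata1*, *Asb7* for *Gata2*, *Castor2* and *Sgsm2* for *Tal1*, and *Plcg2* and *Casp8ap2* for *Runx1*. For *Spi1* they were *Egln2* and *Tmbim6*, for *Mitf* *Abcf3* and *Dcaf17*, for *Stat5a* *Dgkz* and *Trim3*, and for *Stat5b* *Ints6l* and *Zfp27*. A small spread makes a near neighbour easy to find, so these are descriptions only.

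Genes of the same families gave a wider view. Of 22 listed relatives 17 were tested, 8 with a negative and 9 with a positive log2 fold change (median 0.0004), and 0 were called. *Runx3*, a paralogue of *Runx1*, was at 67.2 CPM per kilobase, and *Lyl1*, a paralogue of *Tal1*, at 23.2. *Gata3* was at 4.48 CPM per kilobase, below *Gata1* and *Gata2*, with a log2 fold change of -0.19. *Cebpg*, which encodes a C/EBP factor without an activation domain, was at 18.5 ± 7.997 CPM after scrambled RNP and 21.6 ± 9.28 after *Zc3h12a* RNP (SD, n = 4), higher in each pair, by a log2 fold change of 0.23 at an edgeR adjusted p of 0.762. *Stat6* was at 16.8 CPM per kilobase with a log2 fold change of -0.16.

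All 32 partners and co-regulators listed were tested, with 19 negative, 13 positive, a median of -0.036 and 0 called. *Id2*, which encodes an inhibitor of helix-loop-helix factors, had the highest level among them, 311 CPM per kilobase, and was lower in 4 of 4 pairs (-0.29, standard error 0.082, edgeR adjusted p 0.594). *Bhlhe40* was at 127 and *Fli1*, an ETS factor found with GATA2 and RUNX1, at 83.0 CPM per kilobase, with log2 fold changes of -0.055 and -0.14. *Hes1*, a repressor downstream of Notch, had 71.9, 79.7, 136 and 197 CPM in scrambled RNP samples and 59.1, 59.2, 94.1 and 117 CPM in *Zc3h12a* RNP samples. It was lower in each pair, with a log2 fold change of -0.50 and an adjusted p of 0.401 in edgeR. *Gfi1*, a zinc finger repressor, had 18.6, 12.3, 4.65 and 20.7 CPM against 6.45, 8.75, 4.19 and 10.7 CPM, a log2 fold change of -0.81 (standard error 0.21, edgeR adjusted p 0.524).

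Upstream of the factors, the 12 genes of IL-3 and KIT signalling were evenly divided, with 6 negative and 6 positive, a median of -0.0073 and 0 called. The highest levels in the list were those of the IL-3 receptor β chains, with *Csf2rb2* at 1684 and *Csf2rb* at 582 CPM per kilobase, and of *Kit* at 359. The receptor's α chain gene, *Il3ra*, was at 27.3. *Csf2rb2*, *Csf2rb* and *Kit* had log2 fold changes of 0.018, 0.049 and -0.058. *Ptpn6*, which encodes the phosphatase SHP-1, a brake on cytokine receptor and KIT signals, had 489, 206, 403 and 433 CPM in scrambled RNP samples and 345, 162, 260.1 and 349 CPM in *Zc3h12a* RNP samples. It was lower in each pair, at a log2 fold change of -0.45 (standard error 0.087, edgeR adjusted p 0.401). *Lyn*, an SRC family kinase, differed by -0.14 and *Cbl*, a ubiquitin ligase, by 0.21.

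Downstream, most genes that respond to STAT5 had a negative log2 fold change, and none was called. The list was chosen with earlier results of these data known, so its shares beside those of all genes are descriptions and not a test. Of the 17 tested, 14 had a negative and 3 a positive log2 fold change with a median of -0.14, 9 were lower in 4 of 4 pairs (8.54% of all genes, 11.4% of those with a mean log2 CPM above 2), and 6 had an unadjusted edgeR p of at most 0.05 (6.17% and 9.36%). These 6 became 1 without replicate 1, 2 without replicate 2, 2 with no low-count filter and 0 without the block, and the median became -0.088 without replicate 1 and -0.089 without replicate 2. Between 13 and 15 of the 16 or 17 fitted were negative in each of the 12 alternatives. The 3 Pim kinase genes, whose products promote survival and growth, lay lower in each of the 4 pairs without being called, at log2 fold changes of -0.24 for *Pim1*, -0.30 for *Pim2* and -0.38 for *Pim3*. *Pim3* had 89.9, 156, 181 and 150.1 CPM in scrambled RNP samples and 68.1, 120.1, 138 and 117 CPM in *Zc3h12a* RNP samples, and its pair differences lay between -0.40 and -0.36 (edgeR adjusted p 0.401).

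*Il2ra*, which encodes CD25, had 42.1, 21.3, 25.8 and 48.9 CPM after scrambled RNP and 23.1, 17.6, 18.1 and 33.7 CPM after *Zc3h12a* RNP. It was lower in each pair and the groups overlapped, at a log2 fold change of -0.55 (standard error 0.11, edgeR adjusted p 0.401). *Osm*, encoding oncostatin M, and *Mcl1*, encoding a survival protein, were the list's most abundant genes per kilobase, at 350.3 and 146 CPM, beside *Pim1* at 221, and differed by -0.098 and -0.14. The positive members of the list were *Ccnd1*, *Bcl6* and *Socs3*. *Ccnd1* had 3 to 28 counts, and its pairs ran from 1.77 to -1.33, as those of *Bcl6* did from 1.35 to -1.01. Of the 17 genes, 12 (70.6%) were called between replicate numbers, against 28% of all genes tested and 42.5% of those with a mean log2 CPM above 2.

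**Figure D5:**
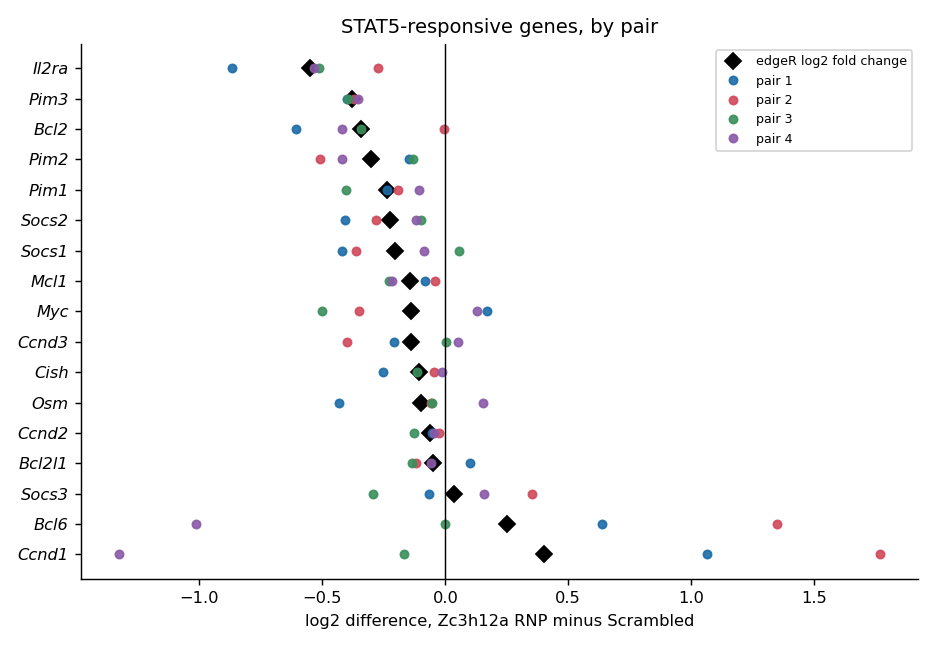
Log2 difference between *Zc3h12a* RNP and scrambled RNP for 17 STAT5-responsive genes, ordered by their edgeR log2 fold change (diamonds), with the 4 pairs as coloured points. The points of 9 genes, *Il2ra* and *Pim3* among them, all lie below 0, while those of *Ccnd1* and *Bcl6* scatter to both sides.

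Of 24 mast cell genes with reported control by GATA factors or MITF, 22 were tested, 18 negative and 4 positive, with a median of -0.093 and 0 called. Over all genes tested 42.2% were negative, and 51.2% of those with a mean log2 CPM above 2. Lower in 4 of 4 pairs were 9 of the 22, against 8.54% and 11.4%. This list too was chosen with earlier results of these data known, so these shares are not a test. *Cpa3* (carboxypeptidase A3) was at 18443, *Cma1* (a chymase) at 7611 and *Tpsb2* (a tryptase) at 2790.2 CPM per kilobase, levels far above those of the factors. *Tpsb2* was lower in 4 of 4 pairs (-0.28, standard error 0.077, edgeR adjusted p 0.554), as was *Lat*, an adaptor of FcεRI signalling (-0.26, standard error 0.087, edgeR adjusted p 0.686). *Hdc*, the enzyme of histamine synthesis, had 161, 87.7, 246 and 93.2 CPM after scrambled RNP and 60.5, 85.8, 109 and 73.0 CPM after *Zc3h12a* RNP. It was again lower in each pair, least in pair 2, at a log2 fold change of -0.75 (standard error 0.22, edgeR adjusted p 0.645). In this list 18 of 22 became 12 of 22 without replicate 2 and 13 of 22 without replicate 1.

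Some of these genes passed both thresholds in an alternative. DESeq2, blocked in the same way, called *Hes1*, *Il2ra* and *Hdc* (0.388% of all genes called), removal of the replicate effect before limma-trend called *Il2ra* (0.757%), and both the absence of a low-count filter (0.17%) and the fit without replicate 2 (0.908%) called *Gfi1* and *Hdc*. No member was called in any of the 12 alternatives. The lowest adjusted p of a member was that of *Gata1*, 0.0285 in limma-trend after removal of the replicate effect, at a log2 fold change within 0.5. That fit does not charge the removed replicate terms, which makes its standard errors too small. It gave 2845 of 14934 genes an unadjusted p of at most 0.05, against 921 in limma-trend with the block. With the block, the limma-trend adjusted p of *Gata1* was 0.708.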

How the data were processed

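The authors enriched poly(A) RNA, prepared libraries, aligned reads with HISAT2 2.2.1 to GRCm39 (FastQC 0.11.9 for quality) and counted them per gene with featureCounts 2.0.1. They deposited raw counts per gene symbol, 1 file per sample. Strand setting and treatment of reads with several matches are not given in the sources used here. A batch correction (removeBatchEffect) is named in the methods, yet the deposited values are uncorrected whole-number counts.

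The test was run in edgeR 4.0.16 under R 4.3.3 (TMM, filterByExpr, quasi-likelihood test, replicate number as block), and p-values were adjusted by Benjamini-Hochberg over all 14934 genes tested. Standard errors equal the absolute log2 fold change over the root of F, and 95% intervals come from limma 3.58.1 (limma-trend, prior count 2, same block). DESeq2 1.42.0, limma-trend, no block, removal of the replicate effect, other scalings and filters, and leaving out each replicate were alternatives. Pair differences are differences of log2 CPM. Exon lengths and positions come from GENCODE on GRCm39, promoter windows from RefSeq (GRCm38.p6 table). Figures were drawn with matplotlib 3.10.9.

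Samples were paired because the study split the cells of 4 mice between both RNPs, although no label equates a replicate number with a mouse. After subtraction of the group mean, samples sharing a number correlated at 0.595, 0.075, 0.624 and 0.041 over all genes tested and at 0.76, 0.651, 0.73 and 0.663 for the 9777 genes above a log2 CPM of 2 in edgeR, where other pairings reached at most 0.164. Over all genes tested, other pairings reached 0.398, above the values of numbers 2 and 4. P-values of the blocked edgeR fit are set against the spread of these samples that is left after the replicate and RNP terms. The sign-flip tests use the 4 pair differences or the 4 replicate-number means. In a check for repeated deposits of a library, the least different replicates of a group had a chi-square of 58.1 per degree of freedom.

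The members and gene lists were chosen with earlier results of these data known. Named list genes are the 3 with the lowest p and the 3 with the highest level per kilobase in each list. *Bcl6*, *Ccnd1*, *Socs3*, *Il3ra*, *Mcpt4* and the basophil and megakaryocyte markers were named after their values were seen. Some genes with profiles near those of members are not reported here.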

Additional observations from a re-analysis of the deposited data

Results flagged for a closer look

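In 2 of 26 groups of 4 samples examined (10 factors, *Zc3h12a* and the ratios, by group), 1 sample lay far from the others, where chance gives about 1 in 20, or 1.3 of 26. For *Tal1*, the *Zc3h12a* RNP sample of replicate 3 (266 CPM) lay below the other three (369 to 389 CPM), and the gap to the nearest was 0.839 of the range. For *Zc3h12a*, the scrambled RNP sample of replicate 1 (24.9 CPM) lay below the other three (37.1 to 39.3 CPM), with a gap of 0.846 of the range.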

How the results depend on the processing

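No member passed both thresholds in any of the 12 alternatives. Without the replicate block 0 genes were called higher and 0 lower, so dropping the pairing changed no call. Over all genes, 8 were called higher and 50 lower with DESeq2, 34 and 79 after removal of the replicate effect, and 9 and 31 with no low-count filter. With limma-trend and with RLE size factors 1 was lower, and with 10 counts in every sample 3. Leaving out a replicate gave 0 to 80 higher and 0 to 57 lower; the highest came without replicate 2, and 2 were lower without replicate 4. Members near 0 changed sign. *Mitf* was at 0.021 with no filter and between -0.090 and 0.094 when a replicate was left out. *Runx1* was at -0.0086 with DESeq2 and with RLE, -0.0038 with 10 counts in every sample, and -0.018 to 0.095 when a replicate was left out. *Stat5b* was at 0.0020 with upper-quartile normalization, 0.024 with no filter, and -0.045 to 0.053 when a replicate was left out, and *Spi1* at -0.15 to 0.090. Without a change of sign, *Cebpb* ran from -0.49 to -0.15, *Gata1* from -0.32 to -0.14 and *Gata2* from -0.19 to -0.071 when a replicate was left out. *Zc3h12a* was at -0.075 without replicate 1 and 0.0062 without replicate 4. The cause of these changes was not tested. With the longest transcript, levels per kilobase were 96.6 for *Gata1*, 409 for *Gata2*, 23.3 for *Mitf*, 89.6 for *Runx1*, 49.0 for *Spi1*, 24.3 for *Stat5a* and 21.5 for *Stat5b*. Of the 4 members differing between replicate numbers, 2 were called with each replicate left out and fewer samples in the fit, *Cebpb* and *Stat5a* without replicate 2 and *Cebpb* and *Mitf* otherwise. Depth limits *Cebpa* alone among the members.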
